A study of Mus musculus with 95 samples.

Results

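The thalamic neuron genes are 9 genes that mark neurons of the thalamus, namely Prkcd, Rora, Tcf7l2, Lef1, Slc17a6, Tnnt1, Plekhg1, Ramp3 and Rgs16. They were taken by gene name from a count table of 54532 genes, and all 9 were found in it. Neither brain region of the study is thalamus, and the spread of these genes between libraries of a region is described here as a gauge of dissection.

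Fkbp5, the gene of the co-chaperone FKBP51, was deleted with Cre recombinase in 2 mouse lines on a C57BL/6 background. The Nex line (FKBP51-Nex-Cre) expresses Cre from the Nex gene, also called Neurod6, which is active in glutamatergic neurons of the forebrain, and the Dlx line (FKBP51-Dlx-Cre) uses Dlx regulatory sequence, which is active in GABAergic neurons of the forebrain. Knockout (KO) and wild-type (WT) mice of both sexes gave the dorsal hippocampus (dHC) and the BNST (bed nucleus of the stria terminalis), a forebrain nucleus that lies close to the thalamus. This makes 16 groups, which are KO and WT males and KO and WT females of the Nex dHC, the Nex BNST, the Dlx dHC and the Dlx BNST, with 6 libraries each apart from 5 in the Nex dHC KO males. All animals were untreated, and the labels give no age. Libraries are named as in their labels, by line (N or Dl), region (D or B), sex (M or F), genotype (K or W) and number, as in N_D_F_W_458. The study gives 5 to 6 mice a condition, so libraries of a group stand for separate mice.

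Thalamic relay neurons are glutamatergic cells that pass sensory and motor signals on to the cortex. They load glutamate with the transporter encoded by Slc17a6 (VGLUT2), and the transcription factors Tcf7l2 and Lef1, nuclear partners of beta-catenin in Wnt signalling, mark them in the adult brain. Several of these genes have other sources close by: Prkcd also marks GABAergic neurons of the extended amygdala, which includes the BNST, and Slc17a6 is also used in the hypothalamus. In bulk tissue, fewer cells of a type and less RNA per cell cannot be told apart, and the source of the RNA was not tested here.

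Library totals ranged over 19.59 to 31.24 M counts (median 22.42 M). Levels are CPM, counts scaled to a common library total with TMM factors over all 95 libraries. Fkbp5 itself was lower in KO than in WT in the Dlx BNST, at 6.25 ± 1.26 CPM in KO males against 33.3 ± 1.87 CPM in WT males and at 8.43 ± 3.0 CPM in KO females against 26.6 ± 2.20 CPM in WT females (SD, n = 6 each). In the Nex dHC it averaged 27.3 ± 6.54 CPM in KO males (n = 5) against 54.3 ± 5.30 CPM in WT males (n = 6), and 27.7 ± 5.26 CPM in KO females against 58.3 ± 5.55 CPM in WT females (n = 6 each). These 4 differences passed edgeR's quasi-likelihood test (Benjamini-Hochberg adjusted), with adjusted p between 5.07e-09 and 0.00211, and the Nex BNST and the Dlx dHC gave none. Library Dl_D_F_K_8 of the Dlx dHC KO females stood apart: 17863 genes had counts there, against at least 23552 in every other library. Its levels sloped against gene length by -0.70 log2 units per doubling of length relative to the regional median, against -0.34 in Dl_B_M_K_639, -0.30 in Dl_D_M_W_641 and -0.105 to 0.177 in the others. The main results that rest on its levels are given with and without it, apart from lists of other genes in the comparisons of KO with WT. The library also enters the spread used for other comparisons, whose contrast leaves out its group. They are dHC over BNST of the Dlx females and Nex over Dlx of the dHC. In the Dlx dHC they are KO over WT males, and WT males over WT females. None of these was refitted with that library alone left out.

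Positions are those of the deposited table, which match GRCm38 annotation for 8 of the 9 genes (not Tcf7l2, whose limits differ). Prkcd (ENSMUSG00000021948), which encodes protein kinase C delta, lies on chromosome 14 from 30595354 to 30626210. Rora (ENSMUSG00000032238), the retinoic acid receptor-related orphan receptor alpha, lies on chromosome 9 from 68653786 to 69388246. Tcf7l2 (ENSMUSG00000024985) lies on chromosome 19 from 55741810 to 55933654, and Lef1 (ENSMUSG00000027985) on chromosome 3 from 131110471 to 131224356. Chromosome 7 holds both Slc17a6 (ENSMUSG00000030500), from 51622006 to 51671119, and Tnnt1 (ENSMUSG00000064179), from 4504570 to 4516382, which encodes slow skeletal muscle troponin T. Plekhg1 (ENSMUSG00000040624), a guanine nucleotide exchange factor of small GTPases, lies on chromosome 10 from 3740364 to 3967303. Ramp3 (ENSMUSG00000041046), a receptor activity-modifying protein that pairs with calcitonin-family receptors, lies on chromosome 11 from 6658521 to 6677475. Rgs16 (ENSMUSG00000026475), a regulator of G protein signalling, lies on chromosome 1 from 153740349 to 153745468. All 9 are protein-coding. Counting is not stated to use strand, so reads of another gene in a shared stretch cannot be told apart: in GENCODE M21, exons of another gene cover 13.75% of the exon bases of Lef1, 10.09% of Rgs16, 7.32% of Ramp3, 0.63% of Rora and none of the other 5.

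Tcf7l2, Lef1 and Rora are themselves transcription factors. The bases before the start sites are shown for members whose window held the letters that TCF and LEF proteins are known to bind. RefSeq (GRCm38.p6) gave 15 start sites for the 9 genes, and the window was the 250 bases before each. The letters searched were CTTTGA or CTTTGT on either strand (TCAAAG or ACAAAG on the other strand). They occurred in 5 of the 15 windows, in 4 of the 9 genes, against 27.6% of all 32851 windows of 27025 genes. The share of all genes with a match was not counted. AGGTCA, the letters of ROR sites, occurred on neither strand in any of the 15 windows, against 14% of all windows. The Prkcd window at its first start, chr14:30626211-30626458 on the minus strand, is printed without 2 bases that lie in an exon and has its match 139 bases before the start. The window at its second start, inside the gene, has a match 241 bases before that start and is not printed. The Tcf7l2 window, chr19:55895071-55895320 on the plus strand, lies inside the gene before a later start and has its match 14 bases before it. The Lef1 window, chr3:131156044-131156293 on the plus strand, also lies inside its gene and has 3 matches, 180, 146 and 120 bases before the start. The Slc17a6 window, chr7:51624387-51624636 on the plus strand, lies inside the gene too, with its match 35 bases before the start. Capitals mark the matches, and a match is a description of these letters, not a bound site.
Prkcd: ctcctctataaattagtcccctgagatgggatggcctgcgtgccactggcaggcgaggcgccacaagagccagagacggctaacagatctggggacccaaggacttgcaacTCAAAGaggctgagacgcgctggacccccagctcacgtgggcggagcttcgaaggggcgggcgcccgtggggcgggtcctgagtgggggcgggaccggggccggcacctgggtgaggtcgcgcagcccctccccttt
Tcf7l2: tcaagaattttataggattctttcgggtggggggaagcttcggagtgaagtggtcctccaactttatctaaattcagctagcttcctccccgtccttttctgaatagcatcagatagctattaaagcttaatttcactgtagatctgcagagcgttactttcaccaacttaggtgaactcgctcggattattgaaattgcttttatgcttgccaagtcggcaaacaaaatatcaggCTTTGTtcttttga
Lef1: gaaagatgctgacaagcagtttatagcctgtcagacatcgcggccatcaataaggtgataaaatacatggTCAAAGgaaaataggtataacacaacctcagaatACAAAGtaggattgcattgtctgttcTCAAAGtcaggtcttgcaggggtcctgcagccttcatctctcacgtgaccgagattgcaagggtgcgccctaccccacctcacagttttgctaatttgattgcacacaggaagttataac
Slc17a6: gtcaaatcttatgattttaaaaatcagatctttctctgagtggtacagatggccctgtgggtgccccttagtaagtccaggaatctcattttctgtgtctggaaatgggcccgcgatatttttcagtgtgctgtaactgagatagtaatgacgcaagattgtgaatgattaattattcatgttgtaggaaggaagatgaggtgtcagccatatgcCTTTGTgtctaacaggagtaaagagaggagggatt

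In both regions every one of the 9 genes was present in every library, and their levels differed widely between libraries of the same group. Prkcd was the most abundant of them per length in the dHC, at a mean of 21.99 CPM per kb, and Ramp3 was in the BNST, at 18.6 CPM per kb. In the dHC the order of means then ran Ramp3 (14.1 CPM per kb), Slc17a6 (8.89), Plekhg1 (7.25), Rgs16 (7.03), Rora (5.27), Tnnt1 (4.66), Tcf7l2 (3.89) and Lef1 (1.02). In the BNST it ran Ramp3, Prkcd (12.6 CPM per kb), Slc17a6 (6.85), Plekhg1 (6.19), Rora (5.35), Rgs16 (4.99), Tcf7l2 (3.24), Tnnt1 (1.64) and Lef1 (0.885). Lef1 was lowest in both. Without Dl_D_F_K_8 the dHC mean of Tnnt1 was 3.11 CPM per kb and that of Ramp3 12.5 CPM per kb.

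**Figure D1:**
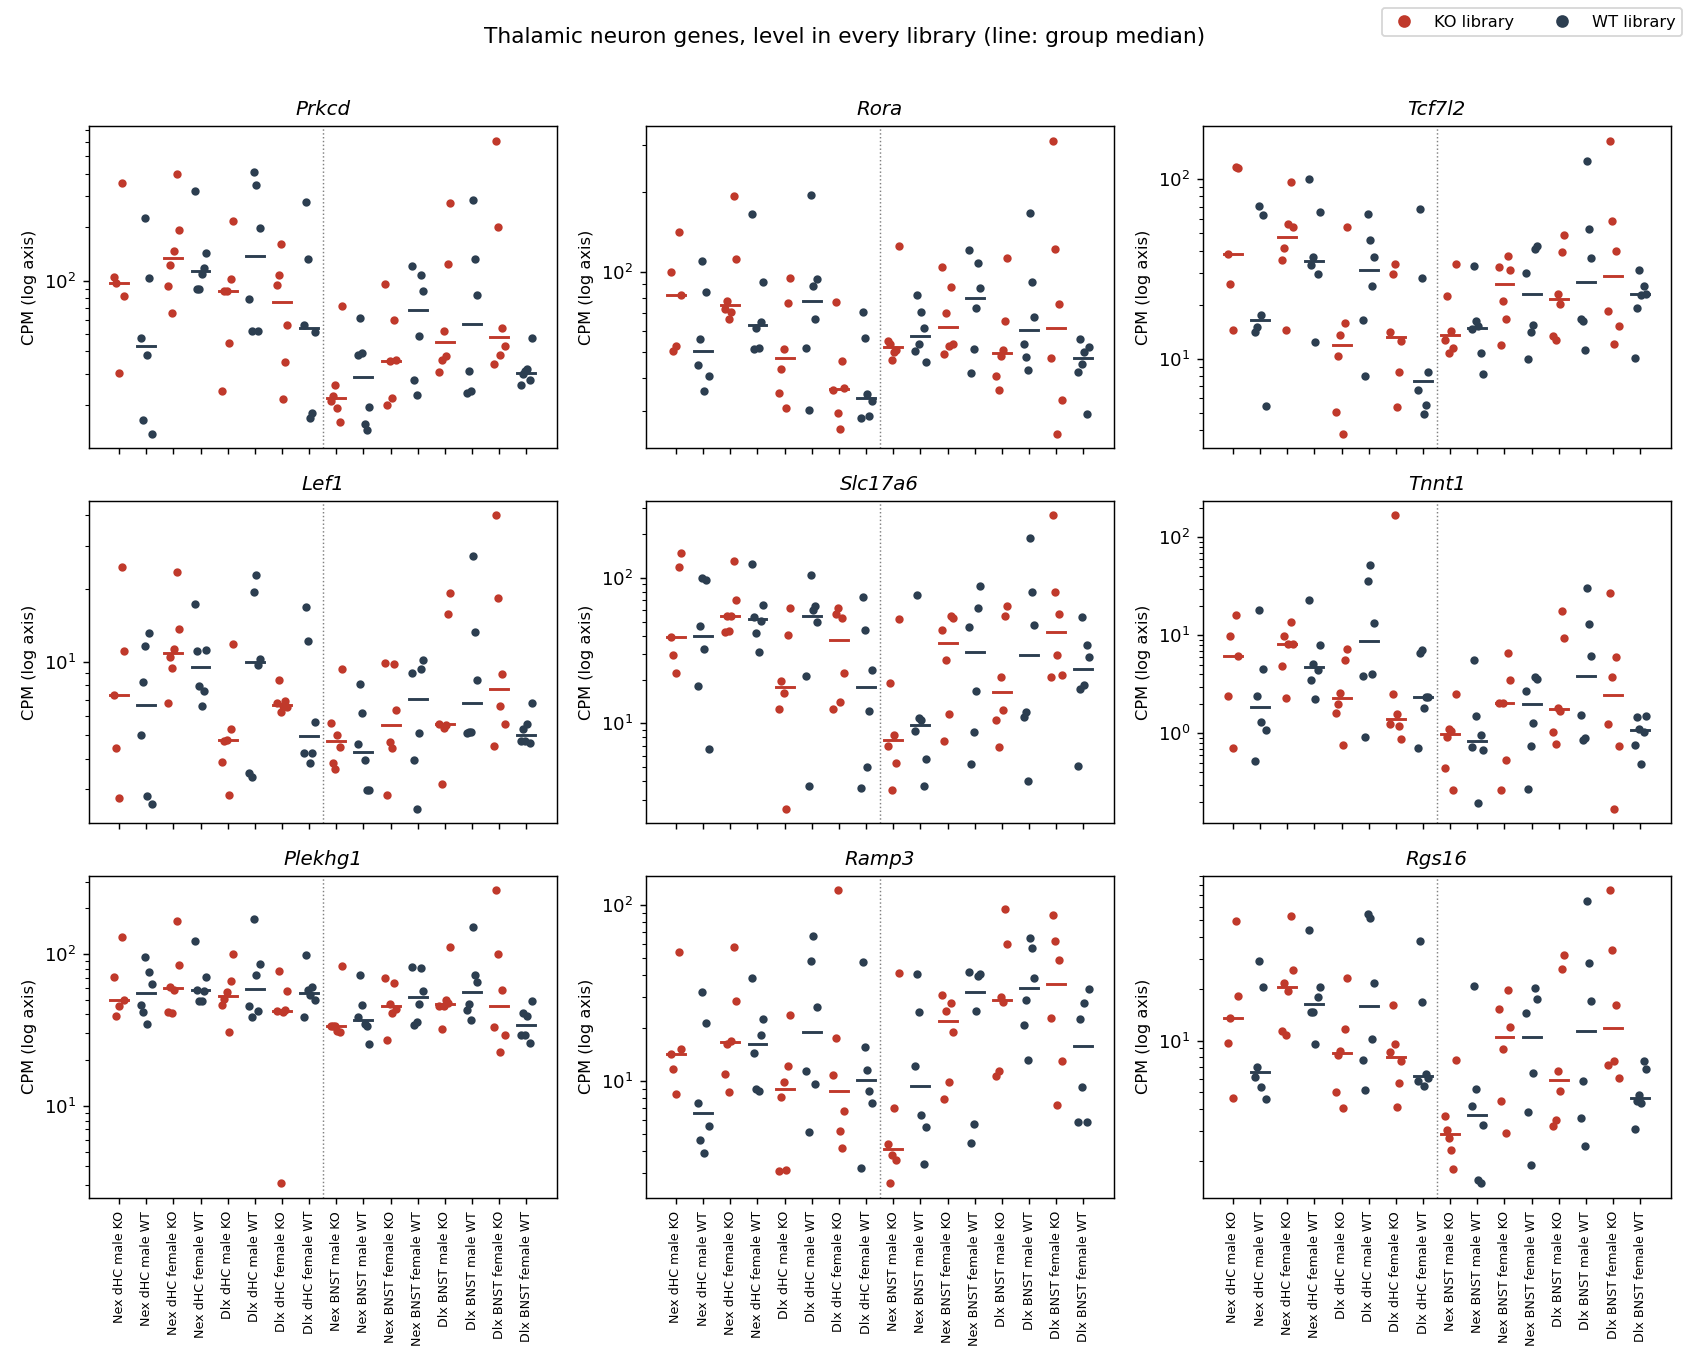
Level of each of the 9 thalamic genes in every library, in CPM on a log axis, by group (KO red, WT dark blue; the line is the group median), with dHC groups on the left of the dotted line and BNST groups on the right. Libraries of 1 group differed by up to 193-fold (Tnnt1), or 157-fold without Dl_D_F_K_8, and KO and WT overlap in every pair. The lowest libraries behind these Tnnt1 ratios held 0.867 and 0.171 CPM in that order.

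Prkcd gave the widest view of this spread at high counts. In the Nex dHC it averaged 134 ± 127 CPM in KO males (n = 5) against 74.4 ± 81.4 CPM in WT males, and 171 ± 121 CPM in KO females against 145 ± 87.2 CPM in WT females (SD, n = 6). In the Dlx dHC it averaged 93.5 ± 67.0 CPM in KO males against 189 ± 156 CPM in WT males, and 79.1 ± 51.9 CPM in KO females against 92.2 ± 100 CPM in WT females. The SD was between 60.2% and 109% of the mean in the 8 dHC groups. In the Nex BNST the averages were 29.4 ± 20.99 CPM in KO males against 31.4 ± 18.4 CPM in WT males, and 44.8 ± 28.9 CPM in KO females against 69.2 ± 41.9 CPM in WT females. In the Dlx BNST they were 92.0 ± 94.9 CPM in KO males against 96.4 ± 102 CPM in WT males, and 164 ± 230 CPM in KO females against 32.3 ± 7.71 CPM in WT females. The Dlx BNST WT females were the tightest group for this gene, and the KO females of the same tissue the widest. With the 16 groups in order of mean Prkcd, 1 of the 15 neighbouring pairs differed by more than the smaller of its SDs (Nex BNST KO females above Dlx BNST WT females) and 0 by more than the larger.

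The other 8 genes had the same form of order, in which neighbours did not differ beyond their spread. Rora had its highest group mean in the Dlx BNST KO females, at 102 ± 108 CPM, and its lowest in the Dlx dHC KO females, at 41.8 ± 18.5 CPM. Tcf7l2 was highest in the Nex dHC KO males, at 62.02 ± 49.7 CPM, and lowest in the Nex BNST WT males, at 16.3 ± 8.64 CPM. For Lef1 the highest mean was that of the Dlx BNST KO females, at 14 ± 13.7 CPM, and the lowest that of the Nex BNST WT males, at 4.80 ± 2.01 CPM. In these 3 genes an SD near the mean marks the highest group. The glutamate transporter gene Slc17a6 averaged 79.2 ± 95.1 CPM in the Dlx BNST KO females and 15.8 ± 18.5 CPM in the Nex BNST KO males, its highest and lowest groups. Tnnt1 averaged 29.2 ± 67.8 CPM in the Dlx dHC KO females, a mean set by Dl_D_F_K_8, and 1.06 ± 0.80 CPM in the Nex BNST KO males. Plekhg1 ran between 84.4 ± 92.2 CPM in the Dlx BNST KO females and 35.6 ± 8.94 CPM in the Dlx BNST WT females. Both extremes of Plekhg1 thus lay in 1 tissue of 1 line. Ramp3 ran between 40.2 ± 31.4 CPM in the Dlx BNST KO females and 10 ± 7.66 CPM in the Dlx dHC KO males. Rgs16 ran between 25.1 ± 22.3 CPM in the Dlx dHC WT males and 3.53 ± 2.15 CPM in the Nex BNST KO males. Among neighbours in these orders, 1 of 15 pairs of Rora and 1 of Tnnt1 differed by more than the smaller SD, and for none of the 9 genes did any pair differ by more than the larger.

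The spread within groups was far above that of other genes. Over the 8 groups of a region, the pooled within-group SD of log2(CPM + 0.5) was 1.21 in the dHC and 1.10 in the BNST for Prkcd, against a median of 0.29 and 0.25 over 20595 genes. It was 1.19 and 0.90 for Tcf7l2, 0.79 and 0.76 for Lef1, and 0.65 and 0.68 for Rora. Among the transcription factors Tcf7l2 was thus the most variable and Rora the least. For Slc17a6 it was 1.29 in the dHC and 1.45 in the BNST, for Tnnt1 1.56 and 1.32, and for Plekhg1 0.82 and 0.70. Ramp3 had 1.21 and 1.20, and Rgs16 0.996 and 1.21. Between 97.3% and 99.98% of all genes had a lower SD in the dHC, and between 98.7% and 99.97% had in the BNST. Without Dl_D_F_K_8 the dHC values were 1.26 for Tnnt1, 0.60 for Plekhg1 and 1.08 for Ramp3, against a median over all genes of 0.23. The 8 groups of a region accounted for 13.6% to 35.1% of the variance of these genes in the dHC and 11.4% to 31.5% in the BNST, where the median gene had 20.3% and 22.9%.

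**Figure D2:**
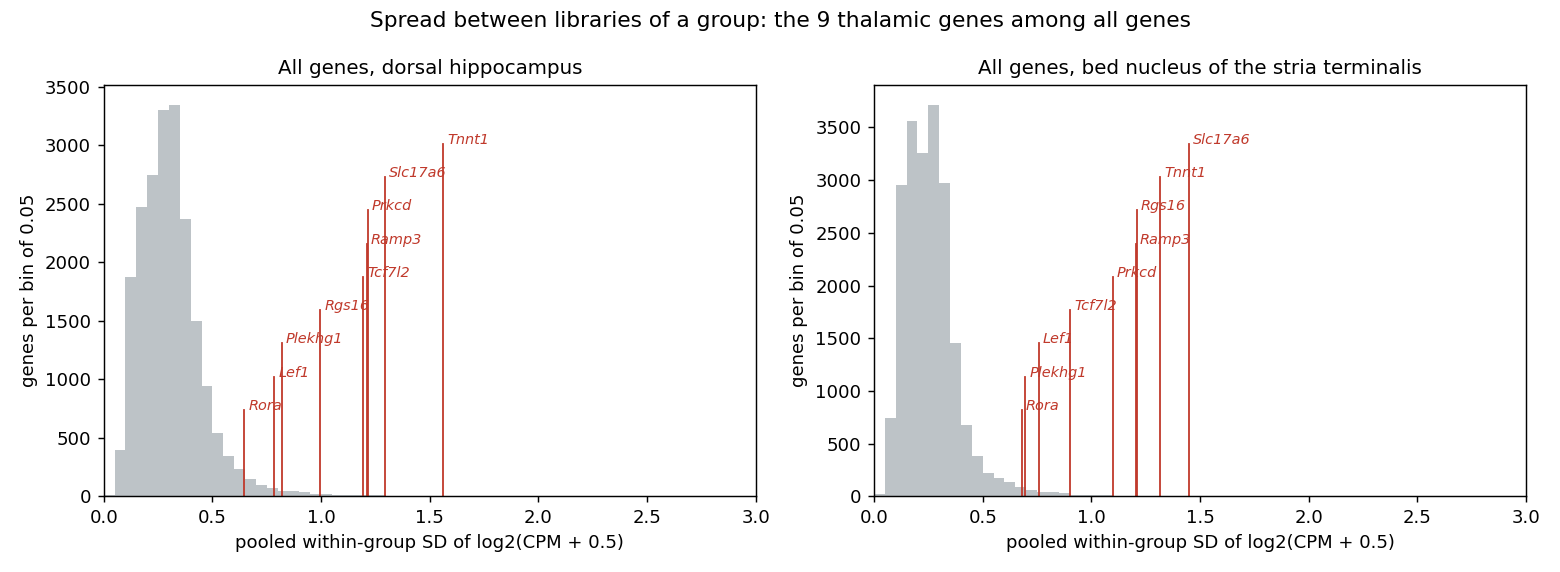
Histogram of the pooled within-group SD of log2(CPM + 0.5) over all genes in the dHC (left) and the BNST (right), with the 9 thalamic genes as red lines. All 9 lie in the upper tail, at 0.65 to 1.56 in the dHC and 0.68 to 1.45 in the BNST.

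Expressed as levels, the lowest, median and highest dHC library held 13.7, 93.6 and 408 CPM of Prkcd, and the lowest, median and highest BNST library 14.4, 35.6 and 614 CPM. For Slc17a6 they were 2.60, 43.1 and 148 CPM in the dHC and 3.50, 19.8 and 268 CPM in the BNST. Tcf7l2 ranged over 3.81, 26.1 and 116 CPM in the dHC and 8.25, 19.6 and 164 CPM in the BNST. The medians of these 3 were higher in the dHC, while the single highest library of each was a BNST library. Ramp3 ran the other way in its medians, with 3.06, 11.6 and 121 CPM in the dHC and 2.61, 22.6 and 94.8 CPM in the BNST. The highest library of a group exceeded its lowest by 3-fold or more in all 16 groups for Tcf7l2, Slc17a6, Tnnt1 and Ramp3, though for Tnnt1 the ratio in the Dlx dHC KO females was 2.93 without Dl_D_F_K_8. For Prkcd and Rgs16 this was so in 15 groups, for Lef1 in 11, for Plekhg1 in 8 and for Rora in 7. The largest ratio was 193 for Tnnt1, in the Dlx dHC KO females. Without Dl_D_F_K_8 it was 157 for Tnnt1, in the Dlx BNST KO females, followed among other genes by 46.3 for Slc17a6 in the Dlx BNST WT males. The lowest libraries behind these Tnnt1 ratios held 0.867 and 0.171 CPM in that order, so low counts limit both. Taking the median over the 9 genes, the Dlx BNST KO females were the most spread group, with an SD of 1.40 on the log2 scale, and the Dlx BNST WT females the least, with 0.39.

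The libraries that were high for one of the genes were mostly high for all. A single library was the highest of its group for 9 of 9 genes in 7 of the 16 groups. These were N_B_M_K_583, N_B_M_W_533, N_D_F_K_498, N_D_F_W_458, Dl_D_M_K_655, Dl_B_M_W_641 and Dl_B_F_K_7. Dl_D_M_W_633 was the lowest of its group for 9 of 9. In the Nex BNST KO males, N_B_M_K_583 had 71.7 CPM of Prkcd, 41.1 CPM of Ramp3 and 52.0 CPM of Slc17a6. The other 5 libraries of that group had 16.05 to 25.75 CPM of Prkcd, 2.61 to 7.01 CPM of Ramp3 and 3.50 to 18.9 CPM of Slc17a6. The high library thus lay outside the range of its group for all 3.

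**Figure D3:**
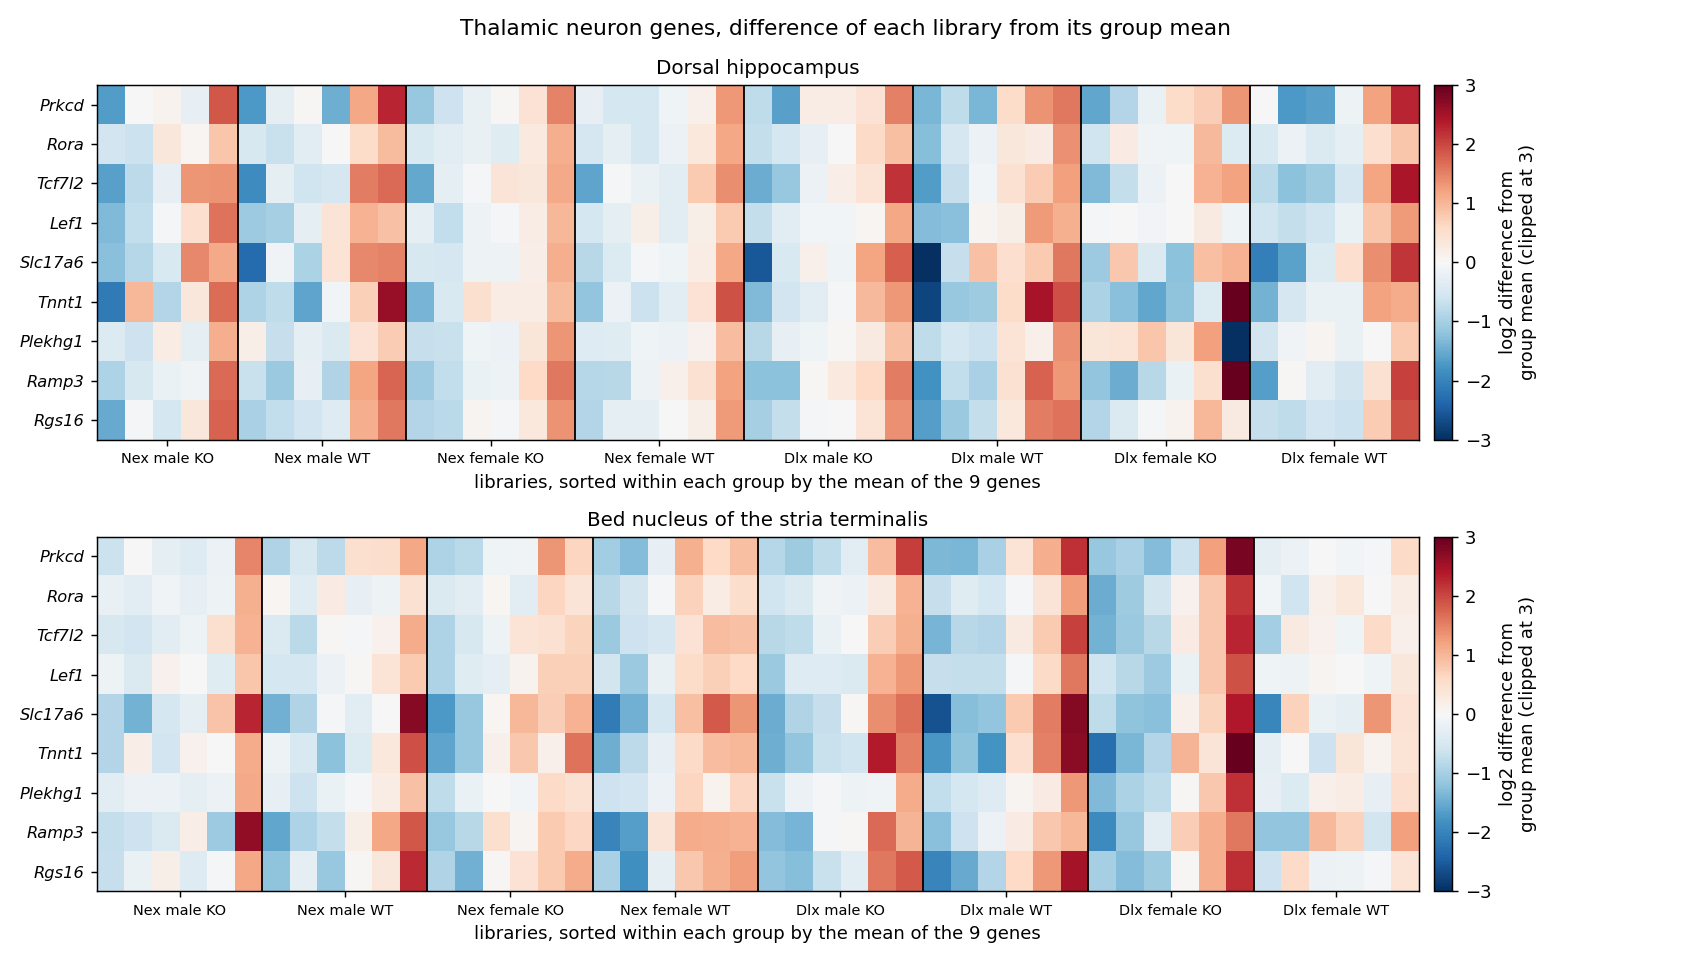
Difference of each library from its group mean on the log2(CPM + 0.5) scale (red higher, blue lower, clipped at 3) for the 9 genes (rows), with the libraries of each group sorted by the mean of the 9 (columns), dHC above and BNST below. Most columns have 1 colour from top to bottom, with Dl_D_F_K_8 as an exception, where Tnnt1 and Ramp3 are high and Plekhg1 is low.

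Summed over the 9 genes, the lowest, median and highest dHC library held 123, 316 and 1132 CPM, and the lowest, median and highest BNST library 117, 198 and 1850 CPM. The 4 highest dHC sums were 1132 CPM in N_D_F_K_498, 1098 CPM in Dl_D_M_W_637, 1006 CPM in N_D_M_K_575 and 952 CPM in N_D_F_W_458. They came from both lines, sexes and genotypes. In those 4 libraries 16 genes of hippocampal neurons summed to between 1604 and 1777 CPM, against a range of 1369 to 2806 CPM and a median of 2082 CPM over the dHC. The 3 highest BNST sums were 1850 CPM in Dl_B_F_K_7, 1103 CPM in Dl_B_M_W_641 and 730 CPM in Dl_B_M_K_655. In these the 15 genes of striatal neurons summed to 371, 2040 and 3618 CPM, where the BNST libraries ran between 371 and 7388 CPM with a median of 3083 CPM. Dl_B_F_K_7 therefore had the highest thalamic and the lowest striatal sum of all 48 BNST libraries.

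Across the 48 BNST libraries, all 36 pairs of the 9 genes were positively correlated on the log2(CPM + 0.5) scale. Pearson's r ran between 0.668 (Rora with Ramp3) and 0.942 (Tcf7l2 with Slc17a6), with a median of 0.841, and Spearman's rho between 0.591 and 0.949, with a median of 0.810. All 36 passed a two-sided permutation test, with adjusted p of at most 1.09e-05 over all pairs of both regions, and the smallest p that 100000 permutations can give is 1e-05. Without the 2 libraries farthest from the median of the first gene of a pair, r ran between 0.582 and 0.939. Within each line and sex r was positive for all 36 pairs, with a lowest value of 0.514. Across the 47 dHC libraries r ran between 0.0772 and 0.913 (Lef1 with Rgs16), with a median of 0.769, and rho between 0.570 and 0.916, with a median of 0.815. By the permutation test 34 of the 36 dHC pairs passed by r and 36 by rho. The exceptions by r were Tnnt1 with Plekhg1 (r = 0.0772, adjusted permutation p = 0.593) and Plekhg1 with Ramp3 (r = 0.261, adjusted permutation p = 0.0786). Within the Dlx females the lowest r was -0.758. Without Dl_D_F_K_8 all 36 dHC pairs passed, with r between 0.629 and 0.944 and a median of 0.826. Without the 2 farthest libraries the dHC range was 0.320 to 0.939.

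Equal numbers occur in both regions of a line, sex and genotype for 42 numbers, though the labels do not say that they mark 1 animal. As deviations from the group mean, the dHC and BNST levels of equal numbers were correlated with r = 0.43 for Rora, 0.41 for Slc17a6, 0.38 for Tcf7l2 and 0.35 for Lef1. The two-sided permutation test, adjusted over the 9 genes, gave p = 0.0277, 0.0277, 0.0365 and 0.0525 for these by r, and 0.0246, 0.0246, 0.0495 and 0.0442 by rho. Spearman's rho was 0.42 for Rora, 0.43 for Slc17a6, 0.35 for Tcf7l2 and 0.37 for Lef1. The other 5 did not pass, with r of 0.29 for Prkcd, 0.27 for Rgs16, 0.26 for Tnnt1, 0.25 for Ramp3 and -0.01 for Plekhg1 and adjusted permutation p of 0.115 or more. Without the 2 farthest libraries r was 0.52 for Rora, 0.39 for Slc17a6, 0.38 for Tcf7l2 and 0.41 for Lef1. Within the 9 numbers of the Nex males r was negative for Prkcd, Tnnt1, Plekhg1, Ramp3 and Rgs16, and within the Dlx males, the Dlx females and the Nex females it was positive for all 9 apart from Plekhg1 in the Dlx females. Without Dl_D_F_K_8 4 genes passed by r and 3 by rho.

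Other genes followed the 9 closely. The likeness of a gene is its mean r with them over the libraries of a region, on deviations from the group mean, and is a description of libraries that share depth and tissue, without a test. In the BNST the most alike among 12204 genes at 5 CPM or more were Ptpn3, a tyrosine phosphatase (mean r 0.919), Cpne9, a copine (0.907), and Ntng1, the thalamic axon protein netrin G1 (0.898). Abhd12b, Grid2ip, Vangl1, Shox2, Galnt9, Ccdc136 and Patj followed, with mean r between 0.865 and 0.891. In the dHC, among 12050 genes, they were the actin-binding Synpo2 (0.838), Amotl1 (0.833) and the zinc finger factor Zic1 (0.828). Rab37, Patj, Hcn4, Grid2ip, Zdhhc22, Syt9 and Nexn followed, with mean r between 0.806 and 0.828; Hcn4 encodes a pacemaker channel. Patj and Grid2ip stood among the 10 most alike in both regions. The least alike in the dHC were Matn2 (-0.758), Fibcd1 (-0.755), Igfbp4 (-0.748), Pou3f1 (-0.745) and Mpped1 (-0.743), of which Fibcd1, Pou3f1 and Mpped1 are on the list of hippocampal neuron genes. In the BNST they were Mn1 (-0.809), Yap1 (-0.804), Kif27 (-0.797), the synaptic protein gene Cplx2 (-0.793) and Tacr1 (-0.789), the substance P receptor. Mean r exceeded 0.5 in 1024 genes of the BNST and 242 of the dHC, or 463 of 12041 in the dHC without Dl_D_F_K_8, and it was under -0.5 in 1130 genes of the BNST and 355 of the dHC. These 355 were 2.95% of the dHC genes, against 5.31% without Dl_D_F_K_8.

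Of a list of 12 other thalamic genes (Gbx2, Shox2, Synpo2, Ntng1, Adarb1, Slitrk6, Lhx9, Cacna1g, Zic1, Zic4, Calb2 and Rorb), 12 had a mean r over 0.5 with the 9 in the BNST, with a median of 0.81, and 10 in the dHC, with a median of 0.76. Cacna1g and Rorb, at 0.48 each, were the exceptions in the dHC, and both exceeded 0.5 without Dl_D_F_K_8. Of the 15 striatal genes 14 were under -0.5 in the BNST, with a median of -0.71; Six3 was the exception, at 0.53. Of the 16 hippocampal genes 7 were under -0.5 in the dHC and 7 in the BNST, with medians of -0.14 and -0.26. In the BNST 3 hippocampal genes exceeded 0.5, which were Bok (0.82), Prox1 (0.70) and Iyd (0.62), named after their values were seen. Thalamic markers outside the 9 were thus high and low in the same libraries, while 14 of 15 striatal markers in the BNST ran the other way and the hippocampal markers were divided. The lists were chosen with earlier results of these data known. Ntng1, Shox2, Synpo2 and Zic1 also stand among the most alike genes named above. The agreement of the thalamic list is therefore a description, not independent support. Habenular genes, which mark the nucleus beside the thalamus, had medians of -0.0037 in the dHC and 0.06 in the BNST. The 18 Wnt and TCF partners had medians of -0.11 and 0.07. The relatives of the 9 genes had -0.07 and -0.23, with Prkch at 0.80 in the dHC and Prkca at -0.75 in the BNST. Extended amygdala genes had -0.15 and 0.14, hypothalamic genes 0.18 and 0.35, oligodendrocyte genes -0.11 and 0.22, and choroid plexus genes 0.02 and -0.13. Endothelial genes had -0.03 and 0.21, astrocyte genes 0.02 and 0.19, and microglial genes -0.30 and -0.37. The range of the summed level of the habenular list was 27.6 to 69.1 CPM in the dHC and 22.2 to 105 CPM in the BNST, and that of the choroid plexus list 14.02 to 1285 CPM in the dHC and 15.1 to 568.4 CPM in the BNST.

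**Figure D4:**
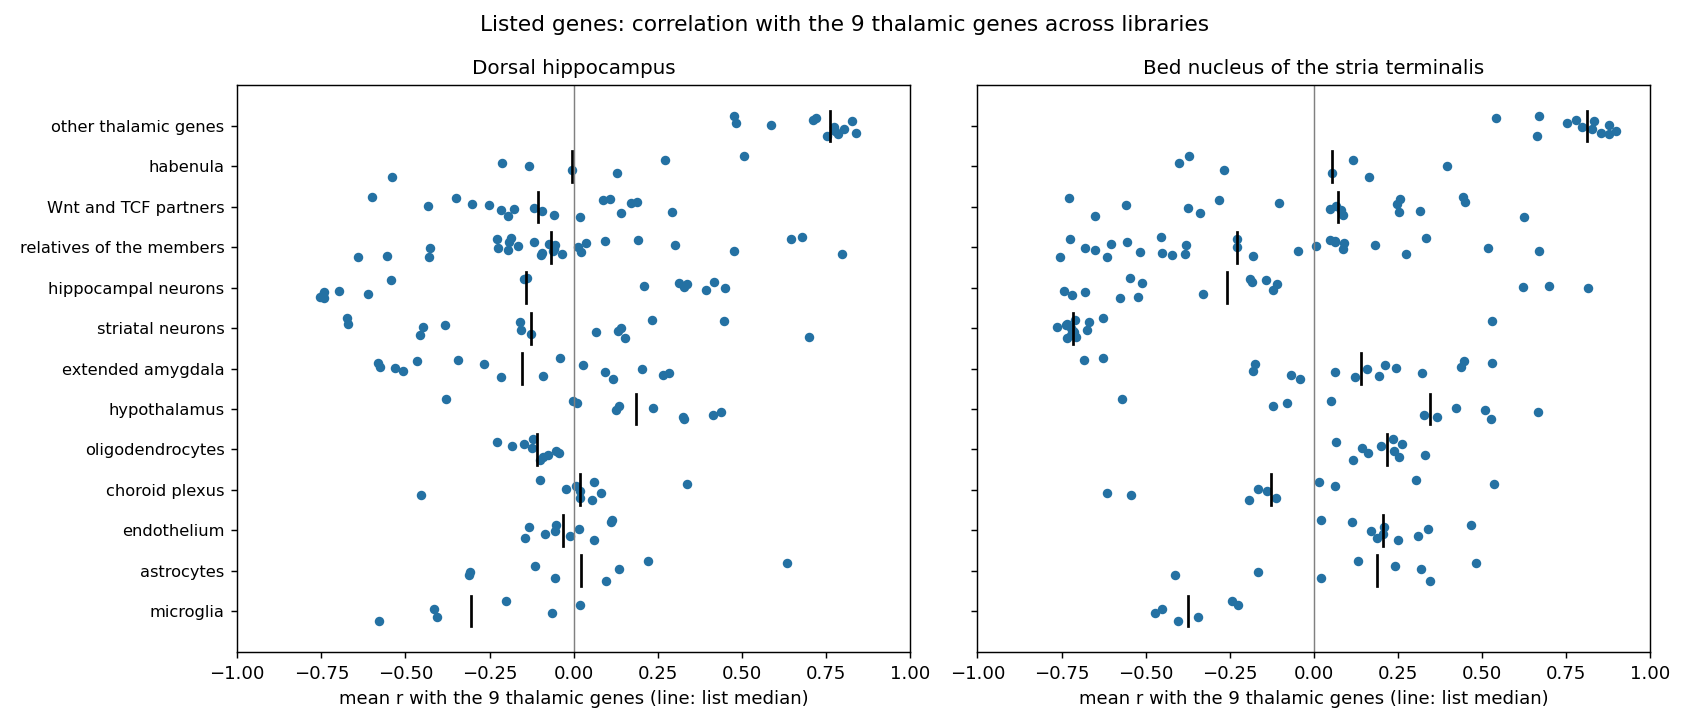
Mean r of each listed gene with the 9 thalamic genes over the libraries of the dHC (left) and the BNST (right), on deviations from the group mean, by list (points are genes, black lines list medians). Other thalamic genes lie at the right, with medians of 0.76 and 0.81, and striatal genes at the left in the BNST, with a median of -0.71.

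Between the regions, 1 of the 9 genes passed the test in 1 of 4 sets, beside a large share of all genes. The comparison sets dHC WT over BNST WT libraries within a line and sex, and called means an adjusted p under 0.05 over all genes by edgeR's quasi-likelihood test (Benjamini-Hochberg). KO libraries of both regions are in each fit and its spread, but not in the contrast. In the Nex females 52.8% of all genes were called and 1 of the 9, Tnnt1. In the other sets 0 of the 9 were called, where the share of all genes was 35.7% in the Nex males, 30% in the Dlx females and 46.7% in the Dlx males. By an unadjusted p under 0.05 there were 2 in the Nex females (Tnnt1 and Prkcd), 1 in the Dlx females (Rgs16) and 0 in each male set. DESeq2 called 1 in the Nex females, 1 in the Dlx females and 0 in each male set, and limma with library quality weights called 1 in the Nex females, 1 in the Dlx females, 1 in the Nex males and 0 in the Dlx males. In the Dlx females the gene called by DESeq2 was Rgs16, higher in the dHC, and that called by limma was Tcf7l2, lower in the dHC. With equal numbers in both regions as a block, edgeR called 5 in the Nex females, beside 49.5% of all genes. The same Nex female libraries with no block gave 2. In the Dlx females the block gave 1, beside 38.6% of all genes, and the same libraries with no block 3. In the males the block gave 0, beside 30.9% (Nex) and 35.1% (Dlx) of all genes. With only the 2 groups compared in the fit, edgeR called 2 in the Nex females (Tnnt1 and Prkcd), 4 in the Dlx females (Plekhg1, Prkcd, Rgs16 and Tnnt1), all higher in the dHC, and 0 in each male set, beside 50.8%, 48.1%, 36% (Nex males) and 45.6% (Dlx males) of all genes. The median log2 fold change of the 9 was 0.69 in the Nex females, 0.94 in the Nex males, 0.55 in the Dlx females and 0.13 in the Dlx males, where the median over all genes lay between -0.02 and 0.01. By limma it was 0.62, 0.51, 0.11 and 0.25 in that order. With 1 library left out it ran between 0.40 (without N_D_F_W_458) and 1.06 in the Nex females, 0.42 (without N_D_M_W_539) and 1.27 in the Nex males, and 0.16 (without Dl_D_F_W_3) and 0.68 in the Dlx females. In the Dlx males it turned, with -0.25 without Dl_D_M_W_637 and 0.63 without Dl_B_M_W_641. The log2 fold change was positive for 8 of 9 genes in both Nex sets and for 6 of 9 in both Dlx sets. Ramp3 was negative in all 4, at -0.50, -0.30, -0.16 and -0.42 in the same order, but in the Nex males it was 0.27 without N_B_M_W_533, and in the Dlx females 0.02 without Dl_B_F_W_10, 0.12 without Dl_B_F_W_14 and 0.04 without Dl_D_F_W_1.

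Tnnt1 had 22.8, 3.47, 5.06, 2.25, 4.48 and 7.94 CPM in the Nex dHC WT females, against 2.69, 0.269, 0.744, 1.29, 3.75 and 3.55 CPM in the Nex BNST WT females. The ranges overlap, and N_D_F_W_458 holds the highest dHC value. Its log2 fold change was 1.90 (SE 0.62, adjusted p = 0.0121, edgeR's quasi-likelihood test), and without that library it was 1.16 with an adjusted p of 0.0945, so that the call ended. Prkcd had log2 fold changes of 1.06 (SE 0.46) in the Nex females, 1.25 (SE 0.62) in the Nex males, 1.49 (SE 0.72) in the Dlx females and 0.96 (SE 0.68) in the Dlx males, with adjusted p of 0.0581, 0.121, 0.132 and 0.26. Rora had log2 fold changes near 0, at 0.01 (SE 0.31), 0.03 (SE 0.29), -0.14 (SE 0.44) and 0.15 (SE 0.39) across these sets. In the Dlx males, 1 gene was called without Dl_B_M_W_641 (Prkcd, log2 fold change 1.68, adjusted p = 0.0496, edgeR), and in the Nex males 3 were without N_B_M_W_533: Slc17a6 (log2 fold change 2.66, adjusted p = 0.00589), Rgs16 (1.97, adjusted p = 0.0109) and Tnnt1 (2.54, adjusted p = 0.0209). These fits drop that library only and use the same edgeR test. N_B_M_W_533 also had the highest hypothalamic sum of the BNST libraries, 140 CPM against a median of 54.2 CPM. Its striatal sum was 883 CPM and its habenular sum 96.3 CPM, where the BNST medians were 3083 and 47.7 CPM. The part of these in the calls was not tested.

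The listed genes of other tissues did separate the regions in the same fits. Of the 16 hippocampal genes, 13 were higher in the dHC and 1 lower in the Nex females, 13 and 0 in the Nex males, 14 and 0 in the Dlx females and 13 and 1 in the Dlx males. Neurod6, which drives neuronal differentiation, had log2 fold changes of 6.25 to 7.82. Of the 15 striatal genes 13 to 14 were lower in the dHC and 0 higher in every set, the adenosine receptor gene Adora2a by -4.19 to -6.79. All 10 oligodendrocyte genes were lower in the dHC in the 4 sets, and 10 to 13 of the extended amygdala genes were lower with 1 higher; Dlk1 had -6.24 to -6.99. Hypothalamic genes were lower in 7 or 8 cases and higher in 0, with the peptide gene Gal at -3.37 to -5.91. These counts are of WT groups. Among the KO libraries, which were in these fits but not in the contrasts, Dl_B_F_K_7 of the BNST had a striatal sum of 371 CPM, inside the dHC range of 265 to 781 CPM.

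Of the 12 other thalamic genes, 2 were higher and 0 lower in the Nex females and in the Nex males, 2 and 1 in the Dlx females and 1 and 0 in the Dlx males. Lhx9, a LIM homeobox gene, was called in all 4 sets, with log2 fold changes of 3.10, 4.09, 4.69 and 2.31 in that order, and Ntng1 in 3, with 1.38, 2.02 and 1.58. Gbx2, a homeobox gene of the developing thalamus, was lower in the dHC of the Dlx females (log2 fold change -2.21, SE 0.84). Of the 18 Wnt and TCF partners 6 were higher and 5 lower in the Nex females, 5 and 4 in the Nex males, 3 and 3 in the Dlx females and 4 and 6 in the Dlx males. Of all genes, 52.8%, 35.7%, 30% and 46.7% were called in these sets in that order. Tcf7, the relative of Tcf7l2 and Lef1, was lower in the dHC in all 4, by -1.34, -2.37, -1.33 and -2.24, as were Rnf43 and Nkd1, feedback inhibitors of Wnt signalling, while the corepressor gene Tle1 was higher in all 4, by 0.62 to 0.93. Among relatives of the 9 genes, Slc17a7, the cortical and hippocampal glutamate transporter VGLUT1, was higher in the dHC by 5.63 to 6.96, while Prkch was lower by -2.08 to -3.08. Calcr, the calcitonin receptor that pairs with Ramp3, was lower in the dHC by -6.0 to -10.10. Of these relatives 6 were higher and 10 lower in the Nex females, 6 and 12 in the Nex males, 7 and 9 in the Dlx females and 6 and 13 in the Dlx males, beside the same shares of all genes.
The remaining lists are to be read beside the 52.8%, 35.7%, 30% and 46.7% of all genes called in the Nex females, Nex males, Dlx females and Dlx males. Of the 7 habenular genes 2 were higher and 3 lower in the Nex females, 2 and 1 in the Nex males, 1 and 1 in the Dlx females and 1 and 2 in the Dlx males. The 10 choroid plexus genes had 1 and 1, 3 and 1, 1 and 0, and 1 and 3 in that order, and the 10 endothelial genes 1 and 1, 0 and 7, 0 and 1, and 0 and 7. The 8 astrocyte genes had 3 and 3, 3 and 1, 1 and 1, and 3 and 2. The 6 microglial genes had 0 and 6, 0 and 4, 0 and 3, and 0 and 6, so that all 6 were lower in the dHC of the Nex females and of the Dlx males.

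The deletion of Fkbp5 was not accompanied by a called change of any of the 9 genes in any of the 8 comparisons of KO with WT libraries. The share of all genes called was 0.0106% in the Nex dHC of each sex, 0% in the Nex BNST of each sex, 0% in the Dlx dHC of each sex and 0.00539% in the Dlx BNST of each sex. DESeq2 and limma with library quality weights also called 0 of the 9 in all 8. By an unadjusted p under 0.05 in edgeR's quasi-likelihood test there were 6 in the Dlx BNST females, 3 in the Dlx dHC males, 1 in the Dlx dHC females and 0 in the other 5 comparisons. Over all genes that p was under 0.05 in 1050 of 18547 genes in the Dlx BNST females, in 586 of 18293 in the Dlx dHC males and in 1945 of 18293 in the Dlx dHC females. In none of the 72 pairings of a gene and a comparison were the KO and WT ranges apart. Ranges were not compared over all genes, so this count does not set the 9 apart from them.

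The median log2 fold change of the 9, KO over WT, was 0.58 in the Nex dHC males and 0.22 in the Nex dHC females, with 9 of 9 positive in both. It was -0.10 in the Nex BNST males (3 positive, 6 negative) and -0.20 in the Nex BNST females (1 positive, 8 negative). In the Dlx dHC it was -1.02 in the males (0 positive, 9 negative) and -0.18 in the females (4 positive, 5 negative), and in the Dlx BNST -0.41 in the males (1 positive, 8 negative) and 1.39 in the females (9 positive, 0 negative). The median over all genes lay between -0.01 and 0.01 in these fits. The 9 genes thus pointed the same way in 4 of the 8 comparisons, with positive signs in 3 of them and negative signs in 1. Leaving out 1 library turned the sign of the median in 5 of the 8. In the Nex dHC females it was -0.199 without N_D_F_K_498 (1 positive, 8 negative) and 0.61 without N_D_F_W_458. In the Nex BNST males it was 0.22 without N_B_M_W_533 (8 positive, 1 negative) and -0.59 without N_B_M_K_583 (0 positive, 9 negative), and in the Nex BNST females it was 0.08 without N_B_F_W_510 (5 positive, 4 negative). The Dlx dHC females gave -0.54 without Dl_D_F_K_8 (2 positive, 7 negative) and 0.54 without Dl_D_F_W_3 (8 positive, 1 negative), and in the Dlx BNST males 0.15 without Dl_B_M_W_641 (6 positive, 3 negative) and -0.78 without Dl_B_M_K_655 (0 positive, 9 negative). The other 3 kept their sign. The median of the Nex dHC males was 0.02 without N_D_M_K_575 (5 positive, 4 negative), that of the Dlx dHC males -0.64 without Dl_D_M_W_637 (1 positive, 8 negative) and that of the Dlx BNST females 0.72 without Dl_B_F_K_7 (9 positive, 0 negative).

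**Figure D5:**
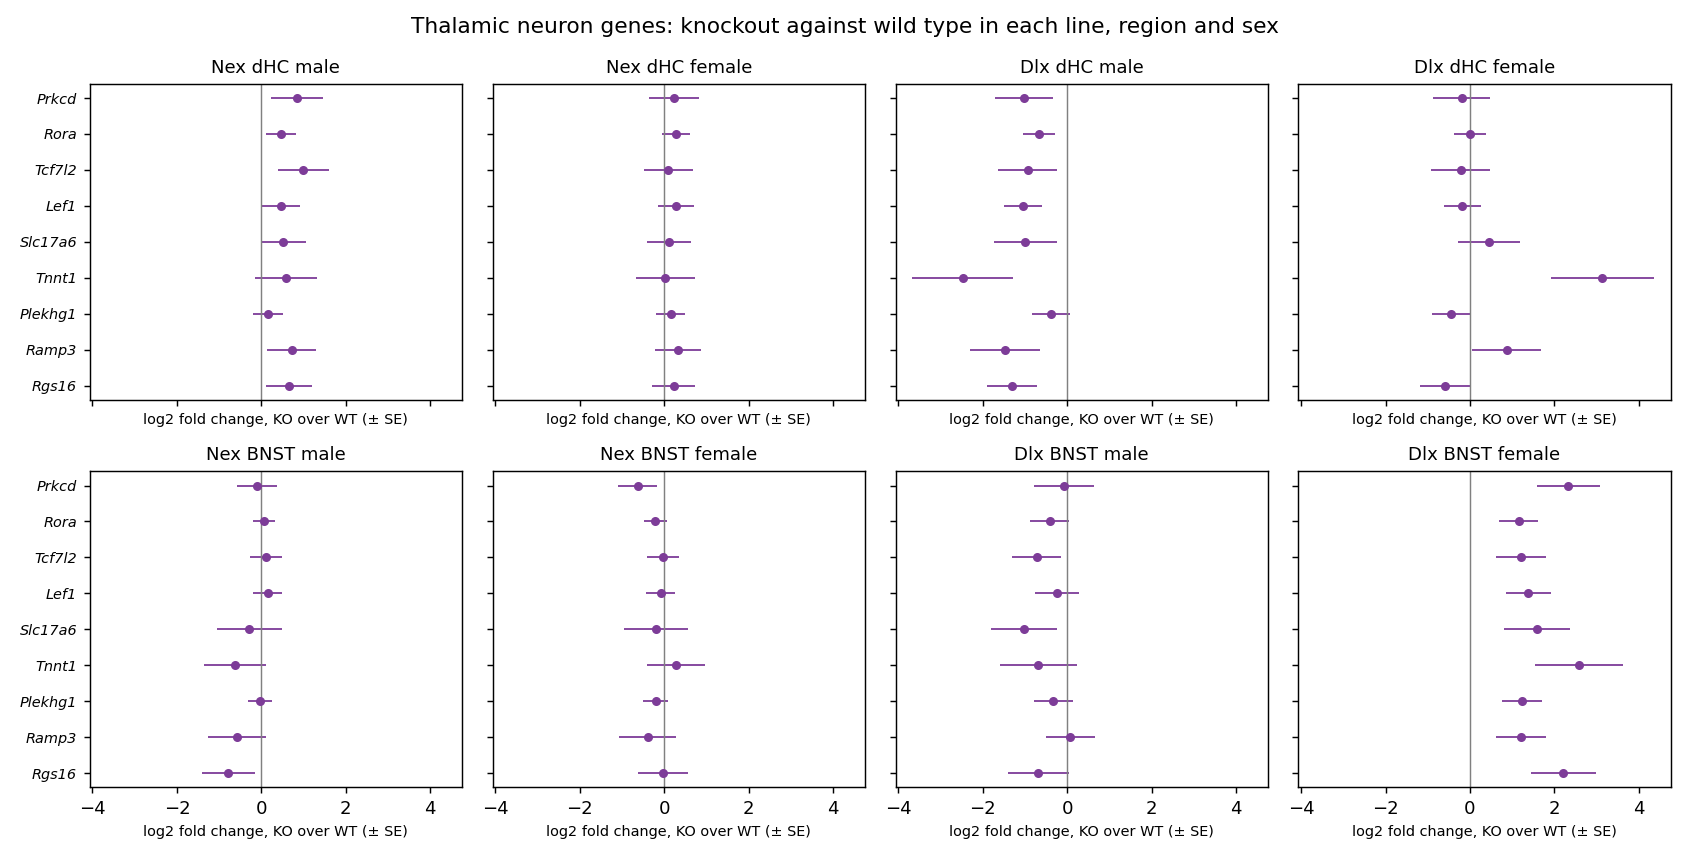
Log2 fold change, KO over WT, of the 9 genes in each line, region and sex, with the SE as bars. Values run between -2.47 for Tnnt1 in the Dlx dHC males and 3.13 for Tnnt1 in the Dlx dHC females, and none passed an adjusted p under 0.05.

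The comparison with the largest median, that of the Dlx BNST females, rested on few libraries. Prkcd had 34.0, 614, 202, 38.2, 53.8 and 43.0 CPM in the KO females, against 25.9, 29.7, 30.9, 31.8, 27.8 and 47.4 CPM in the WT females. Dl_B_F_K_7 and Dl_B_F_K_8 were the high KO libraries, Dl_B_F_K_19 also lay above every WT library, and the other 3 overlapped WT. The log2 fold change was 2.33 (SE 0.75, adjusted p = 0.813, edgeR's quasi-likelihood test) with all libraries and 1.20 (SE 0.64) without Dl_B_F_K_7. Rgs16 had 7.22, 74.8, 33.8, 7.60, 16.2 and 6.08 CPM in the KO females, against 3.07, 4.45, 4.81, 4.37, 7.63 and 6.80 CPM in the WT females. Its log2 fold change was 2.21 (SE 0.77, adjusted p = 0.823, edgeR) and 1.45 (SE 0.73) without Dl_B_F_K_7. Again Dl_B_F_K_7 and Dl_B_F_K_8 were highest. Slc17a6 had 20.8, 268, 80.1, 29.2, 56.0 and 21.5 CPM in the KO females, against 5.06, 17.2, 53.5, 18.3, 34.5 and 28.6 CPM in the WT females, a log2 fold change of 1.58 (SE 0.79) that was 0.66 (SE 0.74) without Dl_B_F_K_7. Rora had 47.5, 312, 122, 24.7, 75.8 and 33.2 CPM in the KO females, against 42.0, 56.1, 45.0, 50.2, 29.3 and 52.1 CPM in the WT females, a log2 fold change of 1.15 (SE 0.46) and 0.40 (SE 0.37) without Dl_B_F_K_7. Dl_B_F_K_18 lay below every WT library for Rora, while Dl_B_F_K_7 lay above them all. For the other 5 the log2 fold changes were 1.21 for Tcf7l2, 1.39 for Lef1, 2.58 for Tnnt1, 1.23 for Plekhg1 and 1.20 for Ramp3, and without Dl_B_F_K_7 they were 0.39, 0.72, 1.15, 0.44 and 0.82.

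Beside this difference stand other markers of the same libraries. The sum of the 9 genes was 190, 1850, 679, 148, 363 and 167 CPM in the Dlx BNST KO females, against 127 to 249 CPM in the WT females. The striatal sum was 1487, 371, 828, 2153, 1388 and 2639 CPM in the same KO libraries, against 1406 to 4917 CPM in the WT females. The library with the highest thalamic sum thus had the lowest striatal sum, and the 2 KO libraries lowest in the 9 genes had the highest striatal sums of their group. The 12 other thalamic genes all had positive log2 fold changes there, with a median of 0.9965, 0 called and 7 with an unadjusted p under 0.05 by edgeR. The striatal genes had a median of -0.50, with 14 of 15 negative and 0 called. The part of these markers in the difference was not tested.

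In the Dlx dHC the directions differed with the library left out. Tnnt1 had 1.26, 2.54, 168, 1.57, 1.18 and 0.867 CPM in the KO females, against 0.715, 6.54, 7.10, 1.82, 2.32 and 2.35 CPM in the WT females. The log2 fold change was 3.13 (SE 1.22, adjusted p = 0.46, edgeR's quasi-likelihood test), and without Dl_D_F_K_8, which holds the 168 CPM, it was -1.23 (SE 0.82). Ramp3 had 10.8, 17.6, 121, 5.17, 4.13 and 6.72 CPM in the KO females, against 3.19, 47.7, 15.6, 11.6, 8.78 and 7.495 CPM in the WT females, with a log2 fold change of 0.87 (SE 0.81) and -0.82 (SE 0.66) without Dl_D_F_K_8. Plekhg1 had 42.0, 76.8, 3.08, 41.7, 42.8 and 57.5 CPM in the KO females, against 38.7, 99.0, 57.6, 53.4, 60.4 and 50.2 CPM in the WT females, with a log2 fold change of -0.45 and -0.20 without Dl_D_F_K_8. Dl_D_F_K_8 was the highest library of its group for Ramp3 (1380 bases of exons), Tnnt1 (2204), Slc17a6 (5399), Prkcd (5544) and Tcf7l2 (8739). It was the lowest for Plekhg1 (8739) and Lef1 (8788), and lay inside the range of the others for Rgs16 (2339) and Rora (13071). The part of the slope on length in these values was not tested. In the Dlx dHC males Lef1 (-1.05, SE 0.45), Rgs16 (-1.31, SE 0.59) and Tnnt1 (-2.47, SE 1.19) had an unadjusted p under 0.05 and an adjusted p of 0.998 by edgeR. Tnnt1 had 1.63, 2.02, 2.57, 0.755, 5.67 and 7.30 CPM in the KO males, against 3.84, 0.911, 36.1, 52.3, 4.04 and 13.4 CPM in the WT males, of which Dl_D_M_W_637 and Dl_D_M_W_641 were highest.

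None of the other lists had a called gene in any of the 8 comparisons of KO with WT libraries or in the sex by genotype interactions, by edgeR's quasi-likelihood test. By an unadjusted p under 0.05 in the Dlx BNST females there were 5 of 6 microglial genes (median -0.31, 6 of 6 negative), 3 of 16 hippocampal genes, 4 of 9 hypothalamic genes tested and 0 of 15 striatal genes. The Dlx dHC females gave 7 of 8 choroid plexus genes tested, with a median of -2.65. The choroid plexus list there summed to 1285 CPM in Dl_D_F_W_1, 842 CPM in Dl_D_F_W_10 and 223 CPM in Dl_D_F_W_3. The other WT females had at most 77.2 CPM and the KO females at most 111 CPM. Dl_D_F_K_8 had the lowest sum, and the median of this list without that library is not given here. The counts of genes are to be read beside those over all genes given above for the same comparisons.

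Whether the genotype difference depended on sex was tested as the KO over WT difference in males minus that in females. For the 9 genes 0 interactions were called in the Nex dHC, the Nex BNST, the Dlx dHC or the Dlx BNST by edgeR's quasi-likelihood test (Benjamini-Hochberg), and 0% of all genes were called in each of the 4. DESeq2 and limma with library quality weights called 0 of the 9 as well. By an unadjusted p under 0.05 edgeR gave 8 of the 9 in the Dlx BNST, 1 in the Dlx dHC and 0 in both Nex tissues, where over all genes it gave 1647 of 18547 in the Dlx BNST and 1321 of 18293 in the Dlx dHC. In the Dlx BNST all 9 interactions were negative, with a median of -1.93, or -1.11 without Dl_B_F_K_7 and -1.24 without Dl_B_M_W_641: Rgs16 had -2.90 (SE 1.05), Tnnt1 -3.27 (SE 1.38), Slc17a6 -2.60 (SE 1.11) and Prkcd -2.40 (SE 1.02), with adjusted p of 0.53 or more. Without Dl_B_F_K_7 these 4 were -2.14, -1.85, -1.68 and -1.27. The Tnnt1 interaction in the Dlx dHC was -5.60 (SE 1.70, adjusted p = 0.628, edgeR) and -1.22 (SE 1.07) without Dl_D_F_K_8.

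Between WT males and WT females 0 of the 9 genes were called in each of the 4 tissues. The share of all genes called, males over females, was 0.117% in the Nex dHC, 0.0535% in the Nex BNST, 0.23% in the Dlx dHC and 0.0701% in the Dlx BNST. The median log2 fold change of the 9 was -0.55 in the Nex dHC and -0.65 in the Nex BNST, with 9 of 9 negative, and 0.91 in the Dlx dHC and 1.09 in the Dlx BNST, with 9 of 9 positive. Without N_D_F_W_458 the Nex dHC median was -0.17, with 3 positive and 6 negative, and without N_D_M_W_539 it was -0.98. Without N_B_M_W_533 that of the Nex BNST was -1.35. The Dlx dHC median was 0.56 without Dl_D_M_W_637 (8 positive, 1 negative) and 1.57 without Dl_D_F_W_3, and in the Dlx BNST 0.54 without Dl_B_M_W_641. No library left out turned the sign of these 4 medians. By an unadjusted p under 0.05 in edgeR's quasi-likelihood test there were 3 in the Dlx BNST, 1 in the Dlx dHC, 1 in the Nex BNST and 0 in the Nex dHC. DESeq2 called 0 in all 4, and limma with library quality weights called 1, Rora in the Dlx dHC, and 0 in the others. Rora there had 52.0, 30.3, 194, 89.0, 66.4 and 93.9 CPM in the WT males, against 28.3, 70.8, 56.3, 34.7, 28.8 and 32.7 CPM in the WT females. The ranges overlap, with 5 of the 6 males above the WT female median of 33.7 CPM. Its log2 fold change was 1.07 (SE 0.37, adjusted p = 0.203, edgeR's quasi-likelihood test). Tnnt1 in the Dlx BNST had 1.53, 0.848, 0.908, 30.1, 12.9 and 6.18 CPM in the WT males, against 0.759, 1.46, 1.12, 0.485, 1.04 and 1.502 CPM in the WT females, a log2 fold change of 3.04 (SE 1.04, adjusted p = 0.309, edgeR) and 2.06 (SE 1.0) without Dl_B_M_W_641. Dl_B_M_W_641, Dl_B_M_W_643 and Dl_B_M_W_657 were above every female library, and the other 3 lay within the female range or just above it. Prkcd in the Nex BNST was the 1 gene with an unadjusted p under 0.05 there, at -1.15 (SE 0.48). Calls in the other lists were Rgs5 (-0.71) with the endothelial Cdh5 (-0.64), Abcb1a (-0.61) and Flt1 (-0.59) in the Nex dHC, and the choroid plexus gene F5 (-5.08) in the Dlx dHC.

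Between WT libraries of the 2 lines, 0 of the 9 genes were called in any of the 4 comparisons. The share of all genes called, Nex over Dlx, was 0.695% in the BNST of females, 0.597% in the BNST of males and 0% in the dHC of each sex. By an unadjusted p under 0.05 in edgeR's quasi-likelihood test there were 5 of the 9 in the BNST males, 1 in the BNST females, 1 in the dHC females and 0 in the dHC males, and DESeq2 and limma with library quality weights called 0 in all 4. The median log2 fold change of the 9 was -1.41 in the BNST males and -0.66 in the dHC males, with 9 of 9 negative, and 0.65 in the BNST females and 0.67 in the dHC females, with 9 of 9 positive. Without N_D_F_W_458 the median of the dHC females was 0.28, with 7 positive and 2 negative, and without Dl_D_F_W_3 it was 1.34. Without Dl_B_M_W_641 that of the BNST males was -0.70, with 1 positive and 8 negative, and without Dl_D_M_W_637 that of the dHC males was -0.44, with 3 positive and 6 negative. In the BNST males Tnnt1 had -2.46 (SE 0.89), Tcf7l2 -1.41 (SE 0.52), Prkcd -1.63 (SE 0.65), Lef1 -1.17 (SE 0.46) and Rgs16 -1.76 (SE 0.71), with adjusted p between 0.194 and 0.254 by edgeR. Tcf7l2 had 14.6, 32.8, 16.1, 15.2, 10.8 and 8.25 CPM in the Nex BNST WT males, against 16.7, 16.2, 11.2, 126, 52.4 and 36.4 CPM in the Dlx BNST WT males. Dl_B_M_W_641 was highest, N_B_M_W_533 was the highest Nex library, and the ranges overlap. Without N_B_M_W_533 Rgs16 (log2 fold change -2.72, adjusted p = 0.0436) and Tnnt1 (-3.44, adjusted p = 0.0495) passed edgeR's quasi-likelihood test, and without Dl_B_M_W_641 the 5 genes had -1.48 for Tnnt1, -0.70 for Tcf7l2, -0.90 for Prkcd, -0.63 for Lef1 and -0.92 for Rgs16. Among the listed genes Lrp5, a Wnt co-receptor, was called in the BNST females (-0.45, adjusted p = 0.0171, edgeR). The sex and line comparisons share their WT libraries, so their directions are not independent.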

How the data were processed

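Raw counts per gene and library were used as deposited. Per the submitters' processing notes, the authors made them with HISAT2 2.0.5 and featureCounts 1.5.0-p3; build and strand setting are not given in the sources used here. Of 54409 gene identifiers also in GENCODE M21 (GRCm38), 98.26% had the same position there, and so had 8 of the 9 genes (not Tcf7l2). FPKM and the authors' comparison columns had lost their decimal marks and were not used here. In R 4.3.3, edgeR 4.0.16 removed low genes (filterByExpr, minimum count 10), scaled by TMM and ran the quasi-likelihood test with p adjusted over all genes (threshold 0.05) in 24 comparisons. Contrasts of 1 line and region share the spread of its 4 groups. Fits of dHC over BNST hold the KO and WT groups of both regions of a line and sex. Fits of Nex over Dlx hold all 8 groups of a region. The SE was computed from the fold change and F. DESeq2 1.42.0 and limma 3.58.1 were alternatives; the scripts were tested on simulated data. Named genes were all 9, per region the 10 most and 5 least alike, and up to 4 called genes of a list per kind of comparison. Genes, lists and tests were chosen with earlier results of these data known.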

Additional observations from a re-analysis of the deposited data

Results flagged for a closer look

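In 11 of 144 combinations of a gene and a group, 1 library lay farther from the rest than Dixon's test allows for 6 samples (gap over range above 0.625, on the log2(CPM + 0.5) scale). Chance alone flags about 1 in 20, or 7.2 of 144. The 11 came from 7 libraries, with 10 at the high end and 1 at the low end. In the Nex BNST KO males N_B_M_K_583 gave 4: Prkcd at 71.68 CPM (others 16.05 to 25.75), Rora at 124.7 CPM (46.75 to 55.16), Plekhg1 at 83.96 CPM (30.44 to 33.75) and Ramp3 at 41.07 CPM (2.608 to 7.011). In the Dlx dHC KO females Dl_D_F_K_8, the library with the fewest genes, gave Tnnt1 at 167.5 CPM (0.8671 to 2.538) and Plekhg1 at 3.079 CPM, the low end (41.66 to 76.79). Prkcd stood at 317.8 CPM in N_D_F_W_458 of the Nex dHC WT females (89.3 to 143.8) and at 47.38 CPM in Dl_B_F_W_14 of the Dlx BNST WT females (25.92 to 31.84). Slc17a6 stood at 75.65 CPM in N_B_M_W_533 of the Nex BNST WT males (3.745 to 10.92), Plekhg1 at 111.8 CPM in Dl_B_M_K_655 of the Dlx BNST KO males (32.17 to 49.91) and Lef1 at 8.41 CPM in Dl_D_F_K_7 of the Dlx dHC KO females (6.213 to 6.88).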

How the results depend on the processing

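Each comparison was refitted with DESeq2, limma with library quality weights, size factors by median of ratios, and without the filter on low counts. It was also refitted with only the 2 groups compared, and with each library of the groups in its contrast left out. Spread and relations between genes were also run with other pseudocounts, and without Dl_D_F_K_8, chosen after seeing the data. Of the refitted counts and summary values 1366 stayed within 1.5 times, or 1 SD, of the value reported and 19 did not; those 19 are counts of the 9 genes called. In dHC over BNST of the Dlx females (0 reported) DESeq2 gave 1, limma with library quality weights 1 and only the 2 groups compared 4. In the Nex females (1 reported) only the 2 groups compared gave 2, and leaving out a library gave 0 to 2: 0 without N_D_F_W_458, and 2 without N_B_F_W_458, N_B_F_W_504, N_D_F_W_474, N_D_F_W_482 or N_D_F_W_484. In the Dlx males leaving out a library gave 0 to 1 (0 reported). In the Nex males (0 reported) it gave 0 to 3, and limma gave 1. In Nex over Dlx of the BNST males leaving out a library gave 0 to 2 (0 reported), and in males over females of the Dlx dHC limma gave 1 (0 reported). The cause was not tested. Of the refitted log2 fold changes of the 9 genes, 3906 kept both their sign and whether they were called. Another 222 changed sign with no call in either fit, 29 became called and 1 lost its call. No called value changed sign. Over all genes the count called moved more: in Nex over Dlx of the BNST it was 135 in females and 116 in males, against 3000 and 814 by limma, 230 and 269 by DESeq2, 87 and 32 with no filter and 6 and 8 with only the 2 groups compared. In the dHC of females it was 0, against 1585 by limma, 45 by DESeq2 and 311 with only the 2 groups, and in the dHC of males 0, against 4 by limma and 2 by DESeq2. In dHC over BNST of the Dlx females it was 5564, against 10373 by limma and 8411 with only the 2 groups. In males over females it was 13 in the Dlx BNST, 42 in the Dlx dHC and 22 in the Nex dHC, against 1366, 2325 and 55 by limma and 82, 451 and 56 by DESeq2; in the Dlx dHC no filter gave 25 and only the 2 groups 69. In KO over WT no setting with all libraries called more than 4 genes. Equal numbers were not taken to pair the libraries in the main fits, since the labels do not say that they mark 1 animal. Of 42 same-number pairs 12 had a correlation of deviations over 0.1 (median 0.048), and 13 correlated best with their own number. The counts expected by chance were not worked out, so these values do not decide the pairing. Rora, Slc17a6 and Tcf7l2, as given above, were correlated between equal numbers by both r and rho. With the replicate block, dHC over BNST gave 1 called gene of the 9 in the Dlx females and 5 in the Nex females, against 3 and 2 for the same libraries with no block; the median of the 9 in the Nex males, 0.94 with all libraries, was 0.18 with the block and 0.32 for the same libraries with no block. Counts of Tnnt1, as low as 4 in a library, limit its precision most.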
